A study of Mus musculus with 9 samples.

Results

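The 10 genes described here are regulators of fat cell formation, early genes of the adipocyte programme and Adipoq, a late one. They were chosen by name from a list and found in full among the 26214 genes of the expression table. Cebpb, Cebpd, Cebpa, Pparg and Zfp423 encode transcription factors, and Lpl, Fabp4, Cd36, Plin2 and Adipoq encode proteins of lipid uptake, lipid storage and hormone secretion. RNA was sequenced from adipose stromal cells (ASCs) of subcutaneous fat and from fibro-adipogenic progenitors (FAPs) of the quadriceps, all from C57Bl/6 male mice (C57Bl/6 J in the methods of the study) aged 8 to 12 weeks and taken on day 1 after an injection into the quadriceps. ASCs (3 libraries) and FAPs (2 libraries used here) came from mice given NaCl, and injured FAPs (3 libraries) from mice given glycerol, which damages muscle fibres. Both cell types were obtained by removing CD31+ and CD45+ cells and then selecting Sca-1+ cells on beads, and the libraries of each were made from cells pooled from 3 animals. Because the libraries may come from 1 pool, p-values measure the spread between libraries, which may be technical. A further library held CD31+CD45+ cells of glycerol-injected quadriceps, and since it has no replicate its values are given with no test.

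In preadipocytes, C/EBPβ and C/EBPδ act early and switch on PPARγ and C/EBPα, which then sustain each other and activate genes of lipid uptake and storage. Zfp423 helps to commit mesenchymal cells to the fat lineage by supporting Pparg expression. ASCs are the fat precursors of adipose tissue, whereas FAPs reside between muscle fibres, help regeneration and can form fat cells in damaged muscle.

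Reads assigned to genes numbered 27481573, 27349184 and 27402102 in the ASC libraries, 24052508 and 24164447 in the FAP libraries, 26968235, 26698572 and 27028114 in the injured FAP libraries and 13091077 in the CD31+CD45+ library. Values are reads per gene divided by 1 size factor per library, here called normalized values, and 1 read was worth between 0.763 and 1.32 in the 8 ASC and FAP libraries. Of the members, Adipoq lay near this limit, with 103 reads in the 3 ASC libraries together, 10 in the FAP libraries and 3 in the injured FAP libraries. Cd36 was at 0 in FAP replicate 2 and had 1136 reads in FAP replicate 1, which was sequenced to nearly the same depth. The labels were checked against marker genes. All 9 stromal markers (among them Ly6a, which encodes Sca-1, Pdgfra and Cd34) were above 0 in every library, and their summed normalized value was 3024655, 2782577 and 3195156 in ASCs, 1566162 and 1698481 in FAPs, 706507, 764958 and 688810.1 in injured FAPs and 64335 in the CD31+CD45+ library. Col1a1 was the most abundant of them in every library except injured FAP replicate 3, where Col3a1 was, and single markers did not all follow the sum. Pdgfra was at 10837, 15083 and 13043 in ASCs, 17754 and 17756 in FAPs, 23649, 25268 and 23236 in injured FAPs and 119 in the CD31+CD45+ library. Ly6a was at 46513, 49855 and 36777 in ASCs, 16542 and 10823 in FAPs, 24309, 21308 and 24855 in injured FAPs and 17672 in the CD31+CD45+ library, where it was above both FAP libraries. The FAP libraries stood apart in listing 13 of 15 leukocyte markers at 0 in each, Ptprc (CD45) among them, and 4 or 5 of 14 endothelial markers, and their values are given beside those of Cd36 and Fabp4. Among these zeros were genes with high values elsewhere, since 4 genes (Cd14, Mpeg1, Plvap and Sele) were at 0 in both FAP libraries with at least 100 in all ASC and injured FAP libraries. The same count was 1 (Acan) for zeros in ASCs and 0 for zeros in injured FAPs. These genes were picked by this count after the data were seen, and how the zeros arose was not tested.

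Cebpb, which encodes the early factor C/EBPβ, had normalized values of 26572, 21780.0 and 22314 in ASCs, 6710.5 and 5428 in FAPs, 10413, 9053 and 9171 in injured FAPs and 2659 in CD31+CD45+ cells. All ASC libraries were high, both FAP libraries were low and injured FAPs lay between them, with no overlap between the groups. Differences were tested with limma on log2(value + 1) over the 13601 genes whose mean reached 10 in the 8 libraries, and called where the Benjamini-Hochberg adjusted p was under 0.05 and the log2 fold change exceeded 0.58 either way. Fold changes are differences of group means on this log2(value + 1) scale, so for low values, or where the libraries of a group differ, they can lie below or above the ratio of the mean values. Cebpb was higher in ASCs than in FAPs by a log2 fold change of 1.96 (SE 0.13, limma adjusted p = 1.33e-06) and lower in injured FAPs than in ASCs by −1.30 (SE 0.12, limma adjusted p = 5.67e-06), values that were 1.17 and −0.62 and still called with quantile normalization. In injured FAPs it was higher than in FAPs by 0.66 (SE 0.13, limma adjusted p = 0.00152), close to the threshold, and the value was 0.51 without FAP replicate 2, 0.55 with quantile normalization and 0.56 with scaling to a common 75th percentile, none of which passed. In bulk RNA, fewer cells that express a gene and less of its RNA per cell cannot be told apart, for Cebpb as for the other members. Cebpb (GRCm38, chr2:167688915-167690418, plus strand) overlaps exons of Tmem189 on the opposite strand, and the strand setting of the counting is not given in the sources used here. Tmem189 had normalized values of 846 to 994 in the 8 libraries, far below those of Cebpb, but 2577 in the CD31+CD45+ library, about that of Cebpb there, so reads of Tmem189 and Cebpb cannot be told apart in that value.

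Cebpd encodes C/EBPδ, the partner of C/EBPβ in the early phase. Libraries had normalized Cebpd values of 18584, 17526 and 17584 in ASCs, 18493 and 12815 in FAPs, 9773, 7528 and 8761 in injured FAPs and 5438 in CD31+CD45+ cells. FAP replicate 1 reached the level of ASCs and FAP replicate 2 did not, so these groups overlapped, whereas each injured FAP library was below all ASC and FAP libraries. ASCs and FAPs differed by a log2 fold change of 0.22 (SE 0.16, limma adjusted p = 0.267), which did not pass and was −0.048 without FAP replicate 2 and −0.48 with quantile normalization. Cebpd fell in injured FAPs, by −0.83 against FAPs (SE 0.16, limma adjusted p = 0.0011) and by −1.05 against ASCs (SE 0.14, limma adjusted p = 9.89e-05). The call against FAPs was lost without FAP replicate 1, at −0.57, and the call against ASCs was lost with quantile normalization, at −0.47. Within this pair of early factors, Cebpb and Cebpd thus moved in opposite directions between FAPs and injured FAPs. Cebpd (GRCm38, chr16:15887286-15891031, plus strand) overlaps exons of Spidr on the opposite strand, which had normalized values of 273 to 832 in the 8 libraries.

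Cebpa encodes C/EBPα, which acts later, with PPARγ. It was measured at normalized values of 1620.3, 1547 and 1623 in ASCs, 1124 and 1139 in FAPs, 477, 454 and 417 in injured FAPs and 717 in CD31+CD45+ cells. The 3 groups did not overlap, with ASCs highest and injured FAPs lowest. Against FAPs, Cebpa fell in injured FAPs by a log2 fold change of −1.33 (SE 0.10, limma adjusted p = 2.33e-06), and against ASCs by −1.83 (SE 0.09, limma adjusted p = 9.28e-08). Between ASCs and FAPs the log2 fold change was 0.50 (SE 0.10, limma adjusted p = 0.00172), which is under the threshold of 0.58 and was not called. Cebpa lies at chr7:35119293-35121928 on the plus strand of GRCm38, where the antisense gene Gm45091 overlaps its exons.

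Pparg encodes the nuclear receptor PPARγ, without which fat cells do not form. Its normalized values were 404, 416 and 517 in ASCs, 223 and 161 in FAPs, 42.4, 27.9 and 31.3 in injured FAPs and 1447 in CD31+CD45+ cells. The groups did not overlap and followed the same order as Cebpa, with ASCs above FAPs and FAPs above injured FAPs, and the CD31+CD45+ library was above all others. Pparg was higher in ASCs than in FAPs by a log2 fold change of 1.22 (SE 0.23, limma adjusted p = 0.00109). It fell in injured FAPs by −2.47 against FAPs (SE 0.23, limma adjusted p = 8.45e-06) and by −3.69 against ASCs (SE 0.21, limma adjusted p = 1.98e-07). The mean of injured FAPs was 33.8, against 192 in FAPs and 446 in ASCs. Pparg lies at chr6:115360951-115490399 on the plus strand of GRCm38.

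Pparg has several start sites, and the table gives 1 value per gene, so its isoforms were not separated. The primer pair that the study used for PPARγ2, the isoform typical of fat cells, is shown because it reads that isoform alone among those annotated, with both primers in 1 of 7 Pparg transcripts and a product of 83 bases.
PPARg2 forward primer: agtgtgaattacagcaaatctctgtttt
PPARg2 reverse primer: gcaccatgctctgggtcaa
Promoter windows of 250 bases before the start were taken from RefSeq (GRCm38.p6), where 7 of the 10 members matched, with 10 windows in all. Each was searched on both strands for the C/EBP-type motif TTGCNNAA, found in 9.56% of 32851 promoter windows of this length, and for the PPAR half-site AGGTCA, found in 14.0% of them. The third Pparg window (chr6:115421816-115422065, plus strand) is shown because it holds 2 C/EBP-type matches, in capitals, at 215 and 16 bases before the start, the second of them read on the opposite strand.
Pparg promoter 3: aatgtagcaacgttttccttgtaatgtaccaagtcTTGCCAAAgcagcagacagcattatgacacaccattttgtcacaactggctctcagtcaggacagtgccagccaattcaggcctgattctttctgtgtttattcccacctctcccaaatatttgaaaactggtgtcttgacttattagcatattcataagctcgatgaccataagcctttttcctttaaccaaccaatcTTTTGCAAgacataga
The other Pparg windows hold an AGGTCA match each, at 28 and 9 bases before their starts. A match is a description of letters, and binding at these windows was not tested.

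Zfp423 encodes a zinc-finger factor of preadipocyte commitment. Normalized Zfp423 values were 699.5, 840.4 and 1083 in ASCs, 1600.4 and 1736 in FAPs, 387, 337 and 330.3 in injured FAPs and 1189.6 in CD31+CD45+ cells. Both FAP libraries were above all ASC libraries, and these in turn were above all injured FAP libraries. Zfp423 was the regulator with its highest values in FAPs, and it was lower in ASCs by a log2 fold change of −0.95 (SE 0.17, limma adjusted p = 0.000751). In injured FAPs it fell by −2.25 against FAPs (SE 0.17, limma adjusted p = 2.30e-06) and by −1.29 against ASCs (SE 0.15, limma adjusted p = 3.14e-05). Of its 2 promoter windows, the first holds TTGCACAA at 131 bases before the start and the second AGGTCA at 34. Zfp423 lies at chr8:87661810-87959595 on the minus strand of GRCm38.

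**Figure D1:**
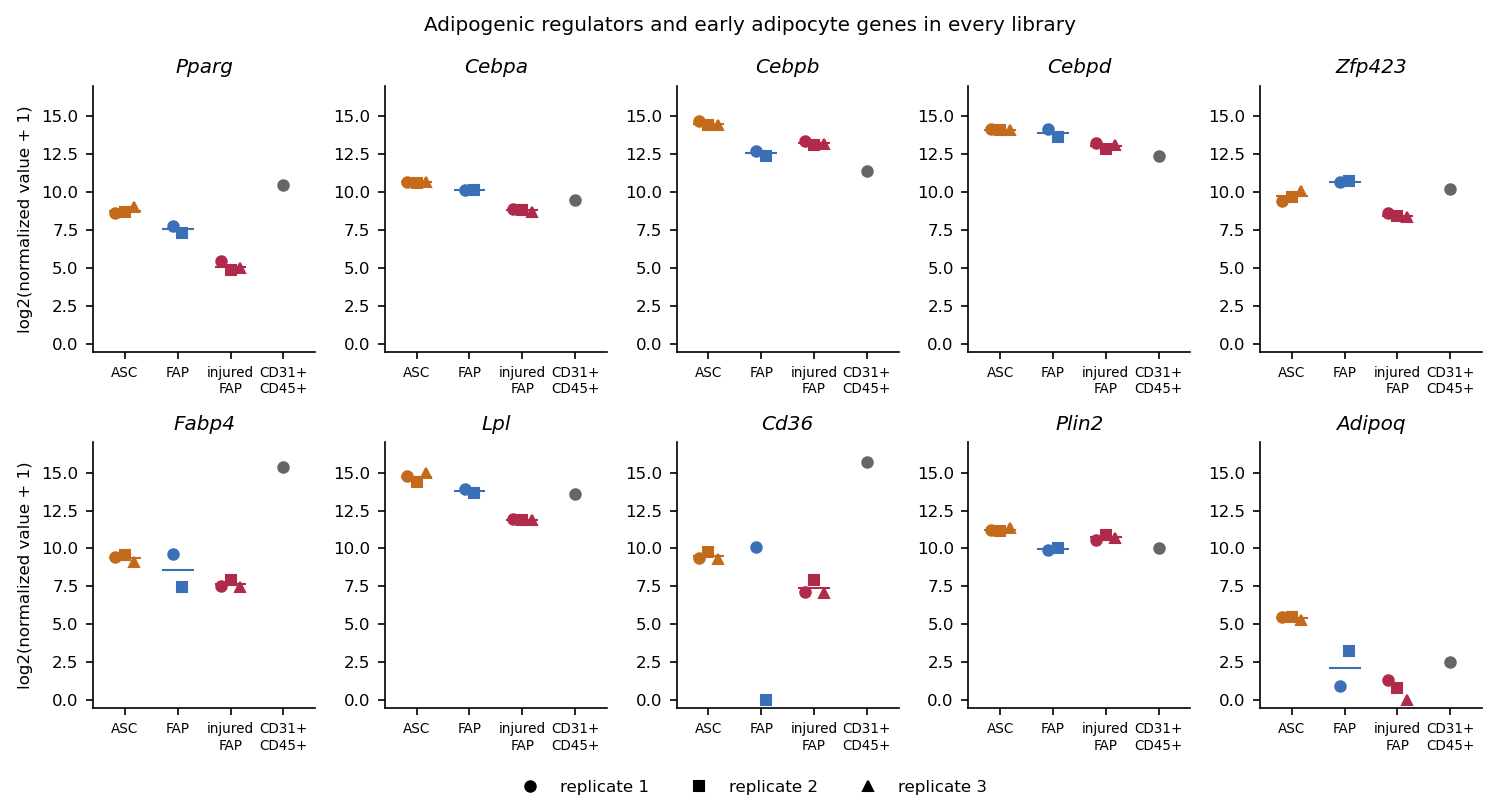
Normalized values of the 10 members in each library, 1 panel per gene, on a log2(value + 1) axis. Points are libraries with a marker for each replicate number, and short lines are group means, left out where a library is at 0. Pparg and Lpl step down from ASCs to FAPs to injured FAPs, and Cd36 is at 0 in FAP replicate 2.

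Among the early adipocyte genes, Lpl encodes lipoprotein lipase, which frees fatty acids from circulating triglycerides. Its normalized values were 27978, 21036 and 32007 in ASCs, 15461 and 13186 in FAPs, 3918, 3718 and 3698 in injured FAPs and 12224 in CD31+CD45+ cells. The groups did not overlap, with all ASC libraries high and all injured FAP libraries low, in the order seen for Pparg and Cebpa. Lpl was higher in ASCs than in FAPs by a log2 fold change of 0.90 (SE 0.16, limma adjusted p = 0.00082), but the value was 0.10 with quantile normalization and did not pass there (limma adjusted p = 0.498). It fell in injured FAPs by −1.92 against FAPs (SE 0.16, limma adjusted p = 4.43e-06) and by −2.82 against ASCs (SE 0.14, limma adjusted p = 1.17e-07). Lpl lies at chr8:68880491-68907448 on the plus strand of GRCm38.

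Plin2 encodes perilipin 2, which coats lipid droplets in many cell types. Normalized Plin2 values were 2391, 2240.3 and 2641 in ASCs, 952 and 1026 in FAPs, 1542, 1935 and 1624 in injured FAPs and 1023 in CD31+CD45+ cells. ASCs were highest, FAPs were lowest and injured FAPs lay between them without overlap, the order seen for Cebpb. Plin2 was higher than in FAPs both in ASCs, by a log2 fold change of 1.29 (SE 0.12, limma adjusted p = 1.07e-05), and in injured FAPs, by 0.78 (SE 0.12, limma adjusted p = 0.000285). Injured FAPs and ASCs differed by −0.52 (SE 0.11, limma adjusted p = 0.00179), which was not called because of its size and was −0.61 and called without injured FAP replicate 2. Plin2 lies at chr4:86648386-86670060 on the minus strand of GRCm38. PPAR half-sites are known from genes of lipid storage, and the Plin2 promoter window (chr4:86670060-86670309, minus strand) is shown for its match to AGGTCA, read on the opposite strand as TGACCT, 218 bases before the start and in capitals.
Plin2 promoter: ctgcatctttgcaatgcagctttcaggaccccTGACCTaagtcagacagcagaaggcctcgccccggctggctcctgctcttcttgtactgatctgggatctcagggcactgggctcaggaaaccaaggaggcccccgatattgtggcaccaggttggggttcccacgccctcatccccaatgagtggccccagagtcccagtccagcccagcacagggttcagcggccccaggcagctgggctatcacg

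Fabp4 encodes the fatty acid binding protein aP2, a PPARγ target in fat cells that endothelial cells of capillaries also make. Its normalized values were 677, 751 and 564 in ASCs, 792 and 179 in FAPs, 188, 243 and 172 in injured FAPs and 42779 in CD31+CD45+ cells. FAP replicate 1 was above all ASC libraries while FAP replicate 2 lay among the injured FAP libraries, so FAPs overlapped both other groups. ASCs were above injured FAPs in every library, and Fabp4 was lower in injured FAPs than in ASCs by a log2 fold change of −1.72 (SE 0.42, limma adjusted p = 0.00418). Neither comparison with FAPs passed, at 0.81 for ASCs (SE 0.47, limma adjusted p = 0.16) and −0.92 for injured FAPs (SE 0.47, limma adjusted p = 0.107), and both depended on which FAP library was used. Without FAP replicate 1 the log2 fold changes were 1.88 and called for ASCs (limma adjusted p = 0.000315) and 0.15 for injured FAPs, and without FAP replicate 2 they were −0.26 for ASCs and −1.99 and called for injured FAPs (limma adjusted p = 0.000187). EdgeR on the recovered reads called injured FAPs against FAPs, at −1.23 (adjusted p = 0.0319). Fabp4 lies at chr3:10204088-10208576 on the minus strand of GRCm38. The primer pair that the study used for aP2 was found in both of the 2 annotated Fabp4 transcripts. Its product has 119 bases in the coding transcript and 726 in the other, which retains an intron. These primers, like the table, thus do not single out 1 transcript.
aP2 forward primer: tcaccatccggtcagagagta
aP2 reverse primer: gccatctagggttatgatgctc

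Cd36 encodes a fatty acid translocase, made by fat cells, capillary endothelium and macrophages. Its normalized values were 669, 882 and 623 in ASCs, 1080.2 and 0 in FAPs, 137, 243 and 135 in injured FAPs and 52764 in CD31+CD45+ cells. The FAP libraries were thus the highest and the lowest of the 8, and FAPs overlapped both other groups, whereas ASCs and injured FAPs did not overlap. A value of at least 100 in 1 FAP library beside 0 in the other was found for 2 genes when FAP replicate 1 was the higher, Cd36 and Pecam1, and for 1 gene, Gbp4, the other way round. Pecam1 and Gbp4 were chosen after their values were seen, and they were at 45323 and 5016 in the CD31+CD45+ library. Among pairs of ASC libraries the same count reached 4, and among pairs of injured FAP libraries it was 0. With 1 spread shared by the groups no Cd36 comparison passed, at log2 fold changes of 4.45 for ASCs against FAPs (SE 2.06, limma adjusted p = 0.0849), 2.33 for injured FAPs against FAPs (SE 2.06, limma adjusted p = 0.337) and −2.11 for injured FAPs against ASCs (SE 1.84, limma adjusted p = 0.332). Without FAP replicate 1 the first 2 values were 9.49 and 7.37, both called against a single library at 0 and set by the pseudocount. Without FAP replicate 2 they were −0.59 and −2.71, the second of them called (limma adjusted p = 0.00025), and injured FAPs against FAPs was also negative with edgeR (−1.61) and DESeq2 (−1.64) on the recovered reads, which did not call it. Injured FAPs against ASCs kept −2.11 and was called without FAP replicate 1 (limma adjusted p = 9.14e-05), without FAP replicate 2 (limma adjusted p = 5.99e-05) or with only these groups in the fit (limma adjusted p = 6.81e-05). Cd36 lies at chr5:17781690-17888801 on the minus strand of GRCm38. Its promoter window (chr5:17835897-17836146, minus strand) is shown beside that of Plin2 for the same TGACCT match, here 228 bases before the start.
Cd36 promoter: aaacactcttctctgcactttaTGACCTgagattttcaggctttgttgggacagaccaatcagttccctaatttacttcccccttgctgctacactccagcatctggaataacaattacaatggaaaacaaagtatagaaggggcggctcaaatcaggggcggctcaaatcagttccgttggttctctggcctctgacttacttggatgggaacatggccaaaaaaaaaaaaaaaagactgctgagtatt

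The CD31+CD45+ library had 48.8 times the Cd36 value of FAP replicate 1 and 54.0 times its Fabp4 value. Put as a share of the CD31+CD45+ value, Cd36 was at 1.27%, 1.67% and 1.18% in ASCs, 2.05% and 0% in FAPs and 0.259%, 0.46% and 0.256% in injured FAPs. For Fabp4 this share was 1.58%, 1.76% and 1.32% in ASCs, 1.85% and 0.418% in FAPs and 0.438%, 0.569% and 0.403% in injured FAPs. Both genes thus showed the same order of libraries within FAPs. The summed value of 14 endothelial markers was 7415, 5994 and 7798 in ASCs, 7757 and 5180.0 in FAPs, 2498, 2671 and 2101 in injured FAPs and 442237 in CD31+CD45+ cells. Tek was the most abundant of them in ASCs and FAPs and Cdh5 in injured FAPs and CD31+CD45+ cells. Most of the ASC sum was Tek, and without it the sum was 1429, 1153 and 1098 in ASCs, 5637 and 3289.9 in FAPs and 2103, 2305 and 1736 in injured FAPs, so that ASCs then lay below the others. Cldn5, Emcn, Plvap and Vwf were at 0 in both FAP libraries and Pecam1 (CD31) was at 0 in FAP replicate 2, while none of the 14 was at 0 in ASCs or injured FAPs. Of 13 endothelial markers tested, 7 were higher and 2 lower in injured FAPs than in ASCs, with a median log2 fold change of 1.51. Of all genes, 25.0% were higher and 25.8% lower in this comparison, with a median of 0.02. Emcn and Cldn5 reached the mean of 10 needed for testing through injured FAPs alone, which set their direction there beforehand. Cd36 and Fabp4 had negative values in this comparison. Against FAPs, 3 markers were higher and 7 lower in injured FAPs (24.9% and 27.7% of all genes), with a median of −1.28 beside −0.05. Of the markers tested, Plvap, Emcn and Cldn5 were at 0 in both FAP libraries, so they could not be lower in injured FAPs. The median had the direction of Fabp4 and, by edgeR and DESeq2 but not by limma, of Cd36, neither of these 2 genes being called by limma. The sum, with or without Tek, was higher in FAP replicate 1 than in FAP replicate 2, as Cd36 and Fabp4 were, and a part of endothelial cells in their values was not tested. For 15 leukocyte markers the sum was 686, 555 and 566 in ASCs, 259.6 and 485 in FAPs, 943, 4337 and 846 in injured FAPs and 41684 in CD31+CD45+ cells, with Cd68 most abundant in both FAP libraries and Lyz2 in injured FAP replicate 2. Injured FAP replicate 2, with the highest leukocyte sum, also had the highest Cd36, Fabp4 and Plin2 values of its group, and a part of leukocytes in this was not tested.

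**Figure D2:**
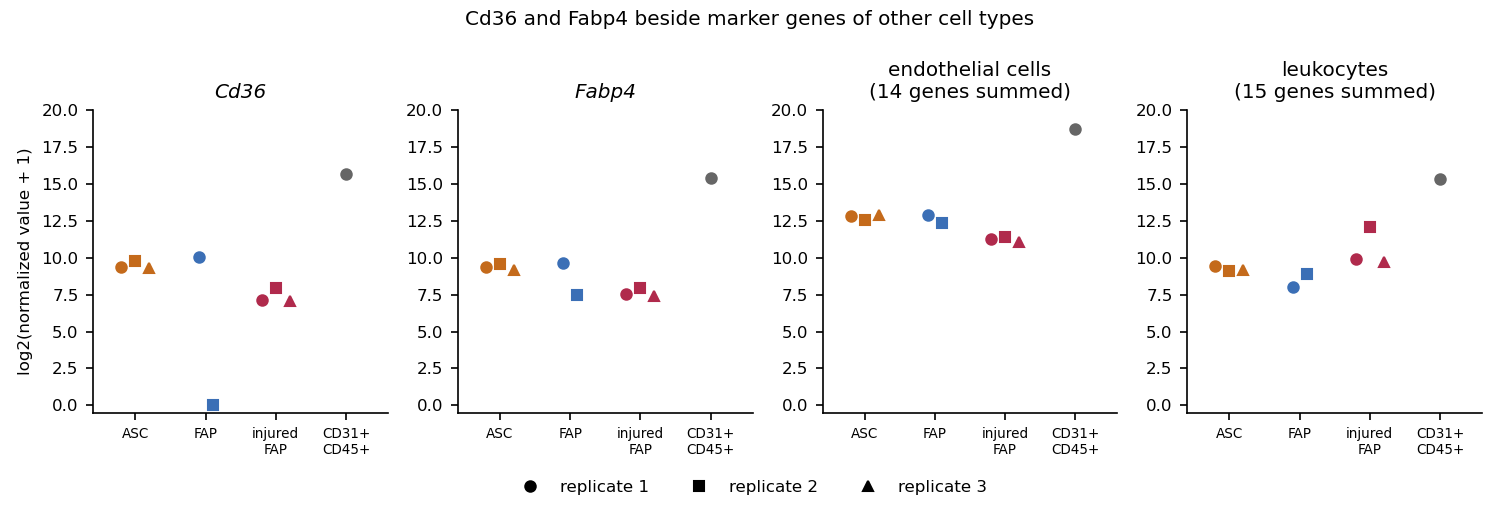
Normalized values of Cd36 and Fabp4 beside the summed values of 14 endothelial and 15 leukocyte markers, by library. Points are libraries on a log2(value + 1) axis. Cd36, Fabp4 and the endothelial sum are each higher in FAP replicate 1 than in FAP replicate 2, and all are far higher in the CD31+CD45+ library.

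Adipoq encodes the hormone adiponectin, a late product of fat cells, and was the least expressed member. Normalized Adipoq values were 44.8, 44.2 and 37.7 in ASCs, 0.951 and 8.47 in FAPs, 1.57, 0.775 and 0 in injured FAPs and 4.71 in CD31+CD45+ cells. ASCs were above every other library, FAPs and injured FAPs overlapped, and the FAP values stand for 1 and 9 reads and the injured FAP values for 2, 1 and 0 reads. Adipoq passed the filter on low values only through ASCs, so its direction against ASCs was set beforehand and the limma p-values of those comparisons carry this choice. It was higher in ASCs than in FAPs by a log2 fold change of 3.33 (SE 0.72, limma adjusted p = 0.00255), which was 2.19 without FAP replicate 1 and 4.46 without FAP replicate 2, and lower in injured FAPs than in ASCs by −4.70 (SE 0.64, limma adjusted p = 9.79e-05). With a pseudocount of 8 these values were 2.04 and −2.52, both called. Taken from the reads, the level in ASCs was 8.93 times that in FAPs (exact 95% interval 4.67 to 19.2) and 54.6 times that in injured FAPs (18.2 to 269), where the intervals cover counting error only. They come from the same reads as the limma values, so they are no separate evidence for the direction. The level in ASCs was 44.4 times FAP replicate 1 alone and 4.99 times FAP replicate 2 alone. Injured FAPs against FAPs did not pass, at −1.37 (SE 0.72, limma adjusted p = 0.115), and depended on FAP replicate 2. It was −0.23 without that library (limma adjusted p = 0.801) and was called at −2.51 without FAP replicate 1, at −1.96 with quantile normalization and at −2.59 with DESeq2, but not with edgeR. The ratio of FAPs to injured FAPs was 6.11 in reads scaled to level, with a counting interval of 1.57 to 34.5, but 1.23 for FAP replicate 1 alone and 10.9 for FAP replicate 2 alone, which held 9 of the 10 reads. Adipoq lies at chr16:23146536-23158028 on the plus strand of GRCm38, and its promoter window, like those of Cebpa and Cebpb, holds no match to either motif.

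Compared with FAPs, ASCs had more RNA of the early factor Cebpb, of Pparg and of the lipid genes Plin2 and Lpl, and less of Zfp423. The call for Lpl was lost with quantile normalization. In counts, 6 of the 10 members were called in ASCs against FAPs, where 47.2% of the 13601 genes tested were called. Of these, 5 members were higher (23.4% of all genes) and 1 was lower (23.8% of all genes). In injured FAPs against FAPs, 7 members were called beside 52.6% of all genes, with Cebpb and Plin2 higher, 2 members beside 24.9% of all genes, and Pparg, Cebpa, Lpl, Zfp423 and Cebpd lower, 5 members beside 27.7% of all genes. Injured FAPs against ASCs gave 8 called members beside 50.8% of all genes, all 8 lower beside 25.8% of all genes. By limma 0 members were higher there, also at an unadjusted p under 0.05 and by edgeR and DESeq2, beside 25.0% of all genes. The exceptions in that comparison were Cd36 and Plin2, both with a negative log2 fold change that was not called. The groups did not overlap for 7 members in ASCs against FAPs (72.2% of all genes), 7 in injured FAPs against FAPs (84.0% of all genes) and 10 in injured FAPs against ASCs (71.8% of all genes). These counts include Adipoq, which could be tested only because it was high in ASCs, so that its direction against ASCs was set by the filter. Without it, 4 of 9 members were higher and 1 lower in ASCs against FAPs, 7 of 9 were lower in injured FAPs against ASCs, and 6, 7 and 9 members had groups that did not overlap.

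As a median over the members, the log2 fold change was 1.06 in ASCs against FAPs, −1.12 in injured FAPs against FAPs and −1.78 in injured FAPs against ASCs, beside 0.00, −0.05 and 0.02 over all 13601 genes. Without Adipoq these medians were 0.90, −0.92 and −1.72. Against FAPs, the medians include Fabp4 and Cd36, whose values there depended on the FAP library used, and they shift when 1 FAP library is left out. The comparisons share libraries, so the values of each member stand side by side as a description. By limma, from FAPs to ASCs and from FAPs to injured FAPs, Cebpb and Plin2 rose in both and Zfp423 fell in both. Pparg and Lpl rose in the first and fell in the second, and Cebpa and Cebpd were called in the second alone. Fabp4 and Cd36 were called in neither by limma, although edgeR called Fabp4 lower in the second. The calls of Cebpb and Cebpd in the second and of Lpl in the first were each lost under some alternatives, as given above. Adipoq is left out of this list because of the filter. Whether the changes differ between those comparisons is given by injured FAPs against ASCs, in which Cebpb, Pparg, Lpl, Zfp423, Cebpa and Cebpd were each lower in injured FAPs.

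**Figure D3:**
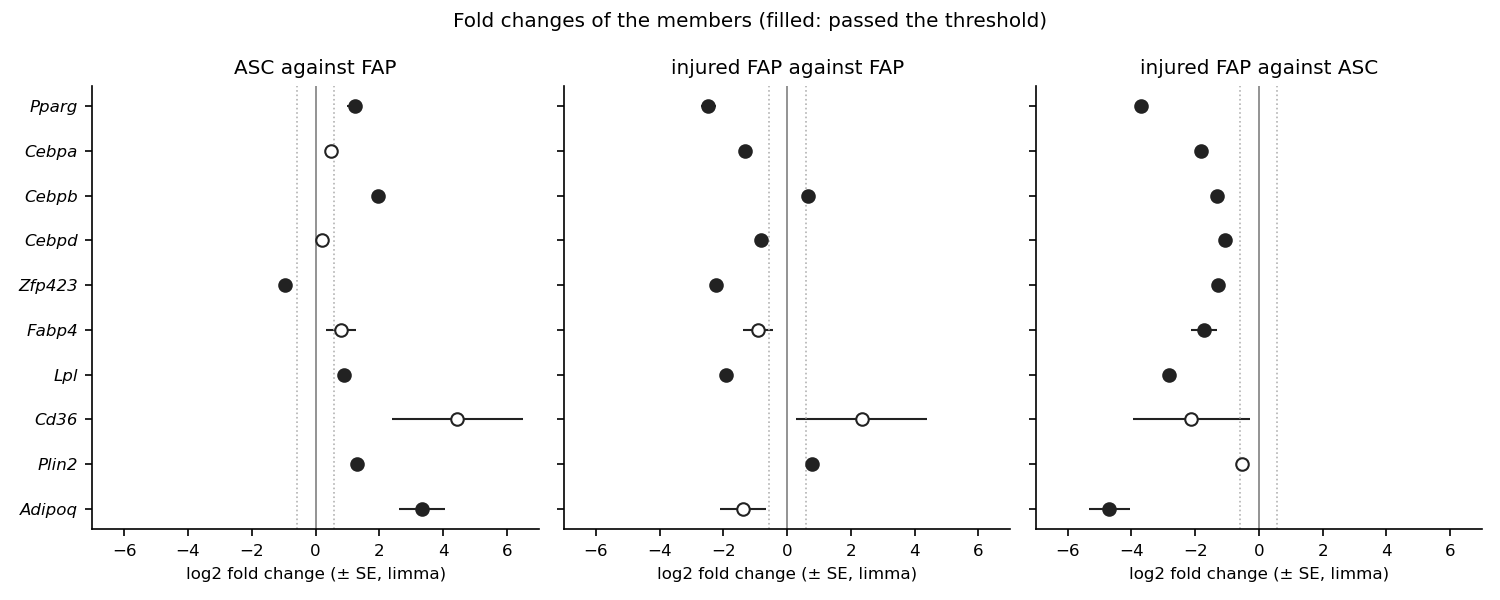
Log2 fold changes of the 10 members in the 3 comparisons, on the log2(value + 1) scale. Bars are 1 standard error either way, filled points were called and dotted lines mark 0.58 in either direction. In injured FAPs against ASCs all 10 points lie below 0, from −4.70 for Adipoq to −0.52 for Plin2, and Cd36 has the widest bars.

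Levels between genes were compared per kilobase of the principal transcript. In ASCs, Cebpb led with a mean of 15662 per kb, followed by Lpl at 6563, Cebpd at 4778, Plin2 at 1284, Fabp4 at 741, Cebpa at 608, Pparg at 252, Cd36 at 213, Zfp423 at 178 and Adipoq at 32.7. The C/EBP factors of the early phase were thus far above Cebpa and Pparg in the same cells. In FAPs, Cebpd at 4179 per kb and Cebpb at 4036 were followed by Lpl at 3481, Fabp4 at 542, Plin2 at 524, Cebpa at 431, Zfp423 at 339.9, Cd36 at 159, Pparg at 108 and Adipoq at 3.64. Neighbours in this order such as Cebpd and Cebpb, or Fabp4 and Plin2, were closer to each other than the FAP libraries were. In FAP replicates 1 and 2, Cd36 was at 318 and 0 per kb and Fabp4 at 884 and 199. The FAP means and places of these 2 genes thus depended on which library was used. In injured FAPs the order was Cebpb at 6347 per kb, Cebpd at 2319, Lpl at 918, Plin2 at 901, Fabp4 at 224, Cebpa at 171, Zfp423 at 71.6, Cd36 at 50.4, Pparg at 19.2 and Adipoq at 0.605. Pparg stood at rank 7 of 10 in ASCs and at rank 9 in FAPs and injured FAPs. CD31+CD45+ cells had another order, with Fabp4 at 47745 per kb and Cd36 at 15523 ahead of Lpl at 2971. Most places depended on the length used. With all annotated exons merged, Fabp4 ranked 9 in ASCs and not 5, Lpl 3 and not 2, Cebpd 2 and not 3, Cebpa 5 and not 6, Pparg 8 and not 7, Cd36 6 and not 8 and Zfp423 7 and not 9, and in CD31+CD45+ cells Cd36 came ahead of Fabp4 and Lpl ranked 5 and not 3. By group means, Cebpb was first in ASCs and injured FAPs, and Adipoq last in all groups, with both lengths. In FAP replicate 2 alone, Cd36 at 0 was below Adipoq at 6.55 per kb.

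**Figure D4:**
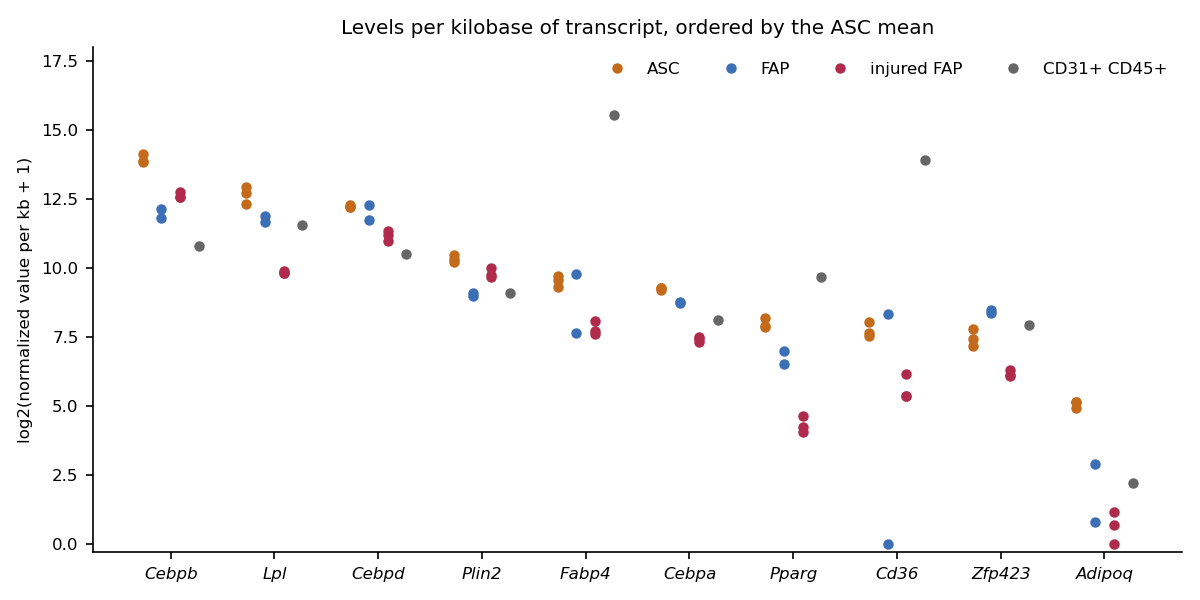
Normalized value per kilobase of the principal transcript for the 10 members, on a log2(value per kb + 1) axis. Points are libraries, coloured by group, and genes are ordered by their ASC mean. Cebpb, Cebpd and Lpl lead in ASCs, FAPs and injured FAPs, and Fabp4 and Cd36 lead in CD31+CD45+ cells.

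The genes whose log2(value + 1) followed that of Pparg most closely over the 8 libraries, among 10592 genes whose mean reached 100, were Peli2 (Pearson r of 0.997), Papln (0.995) and Lama2 (0.995). Peli2 had normalized values of 1370.1, 1367 and 1445 in ASCs, 1027 and 882 in FAPs and 471, 458 and 458 in injured FAPs, the same descending order of groups as Pparg. Among the members, the likeness to Pparg was 0.992 for Lpl, 0.991 for Cebpa, 0.964 for Cebpd, 0.814 for Fabp4, 0.743 for Zfp423, 0.576 for Cebpb, 0.271 for Plin2 and 0.264 for Cd36. These libraries fall into 3 groups, so the values describe the order of the groups and carry no test.

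Other genes of the pathway were taken from 8 lists that leave the members out, with 118 genes in the table, of which 98 were tested. In ASCs against FAPs 49 of the 98 were called, 28 higher and 21 lower, and the median log2 fold change was 0.10, beside 47.2% called and a median of 0.00 over all genes. In injured FAPs against FAPs 54 were called, 12 higher and 42 lower, with a median of −0.43, and in injured FAPs against ASCs 58, 13 higher and 45 lower, with a median of −0.42. The share of called genes was 50%, 55.1% and 59.2%. By direction, 28.6% were higher and 21.4% lower in ASCs against FAPs (23.4% and 23.8% of all genes), 12.2% higher and 42.9% lower for injured FAPs against FAPs (24.9% and 27.7% of all genes) and 13.3% higher and 45.9% lower for injured FAPs against ASCs (25.0% and 25.8% of all genes), and these shares were not tested against each other. Of the 98 genes 6 had passed the filter through 1 group alone, as had 715 of the 13601. Without them the counts were 25 higher and 19 lower, 12 higher and 38 lower, and 13 higher and 41 lower in the 3 comparisons, with medians of 0.08, −0.42 and −0.39.

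Among 24 activators of adipogenesis, 6 were higher and 6 lower in ASCs against FAPs, 1 higher and 11 lower in injured FAPs against FAPs, and 1 higher and 13 lower in injured FAPs against ASCs, with median log2 fold changes of −0.14, −0.45 and −0.61. Ppargc1a passed the filter through FAPs alone, which set its direction against them. Without Ppargc1a, 6 were higher and 5 lower, 1 higher and 10 lower, and 1 higher and 13 lower. The medians were then −0.10, −0.43 and −0.61. Klf4, which induces Cebpb, was higher in ASCs than in FAPs by 2.71 and lower in injured FAPs than in ASCs by −3.18, with 147378 to 184014 in ASCs beside 15751 to 20767 in injured FAPs. Stat5a, a factor that activates Pparg, was higher than in FAPs by 1.65 in ASCs and 1.04 in injured FAPs, as Cebpb was. Bmp4, a signal for adipocyte commitment, was lower than in FAPs by −1.39 in ASCs and −2.30 in injured FAPs, and Zfp467 by −2.60 and −2.22, in the direction of Zfp423. Klf15 was lower in injured FAPs by −2.93 against FAPs and −2.52 against ASCs, with Pparg and Cebpa.

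Of 24 inhibitors of adipogenesis 23 were tested, with 5 higher and 6 lower in ASCs against FAPs, 1 higher and 13 lower in injured FAPs against FAPs and 4 higher and 10 lower in injured FAPs against ASCs, and medians of −0.05, −0.67 and −0.36. Gata3 passed the filter through ASCs alone, which set its direction against them. Without Gata3, 4 were higher and 6 lower, 1 higher and 12 lower, and 4 higher and 9 lower. The medians were then −0.07, −0.64 and −0.36. Wnt10b, whose protein holds back Pparg and Cebpa, was higher in ASCs than in FAPs by 2.08 and lower in injured FAPs than in FAPs by −2.81. With normalized values of 627 to 939 in ASCs, of 148 and 197 in FAPs and of 21.7 to 25.1 in injured FAPs, it followed the group order of Pparg itself. Dlk1, the preadipocyte marker Pref-1, was lower in ASCs than in FAPs by −2.61, and Runx1 was higher in injured FAPs than in FAPs by 2.60 and than in ASCs by 1.91.

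Of 9 relatives of the PPAR, C/EBP and FABP members 5 were tested. In ASCs against FAPs 0 were called by limma (0 also at an unadjusted p under 0.05, by edgeR and by DESeq2). In injured FAPs 1 was higher and 1 lower against FAPs, and 1 higher and 3 lower against ASCs. The medians in the 3 comparisons were 0.16, −0.34 and −0.59. Fabp3 passed the filter through ASCs alone, which set its direction against them. Without Fabp3 the medians were −0.033, −0.23 and −0.30, and 2 genes were lower in injured FAPs against ASCs. Ppard, the broadly expressed relative of Pparg, was lower in injured FAPs than in ASCs by −0.59, a call lost without ASC replicate 1 (−0.37), without injured FAP replicate 3 (−0.53) and with edgeR (−0.54). For partners of lipoprotein lipase, 9 of 14 were tested, with 2 higher and 1 lower, 3 higher and 3 lower, and 2 higher and 3 lower in the 3 comparisons in the same order, and medians of 0.46, 0.08 and 0.34. Angptl4, whose product inactivates the enzyme made from Lpl, ranged from 2284 to 3795 in ASCs and from 5202 to 6999.7 in injured FAPs, with 435 and 497 in FAPs. It was higher than in FAPs by 2.63 in ASCs and 3.65 in injured FAPs, so that it was highest in the group with the lowest Lpl. Vldlr, a lipoprotein receptor, was higher in ASCs than in FAPs by 1.51 and lower in injured FAPs than in FAPs by −1.54, as Lpl was. Lrp1, at −0.76 in injured FAPs against ASCs, was at 0.24 and not called with quantile normalization.

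All 9 genes of fatty acid uptake and activation beside Cd36 were tested, with 3 higher and 2 lower, 4 higher and 1 lower, and 3 higher and 1 lower in the same order of comparisons, and medians of −0.15, 0.56 and 0.34. Acsl4, an acyl-CoA synthetase, was higher than in FAPs by 2.27 in ASCs and 2.69 in injured FAPs, and Got2, which also takes part in fatty acid uptake, was higher in injured FAPs by 1.37 against FAPs and 1.52 against ASCs. Of 21 other genes of lipid droplets and triglycerides beside Plin2, 17 were tested. In the same order, 7 were higher and 4 lower, 1 higher and 8 lower, and 1 higher and 10 lower. Their medians were 0.33, −0.35 and −0.76. Plin1 passed the filter through ASCs alone, which set its direction against them. Without Plin1, 6 were higher and 4 lower, 1 higher and 7 lower, and 1 higher and 9 lower. The medians were then 0.32, −0.29 and −0.71. Hilpda, which encodes a lipid droplet protein that inhibits lipolysis, was higher than in FAPs by 2.52 in ASCs and 1.24 in injured FAPs, as Plin2 was. The hormone-sensitive lipase gene Lipe and G0s2, whose product inhibits another lipase, were lower than in FAPs by −2.53 and −3.37 in ASCs and by −2.29 and −3.08 in injured FAPs.

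Of 15 mature adipocyte genes beside Adipoq 8 were tested, with 4 higher and 3 lower, 0 higher by limma (0 also at an unadjusted p under 0.05, by edgeR and by DESeq2) and 7 lower, and 1 higher and 5 lower, and medians of 0.95, −2.12 and −2.66. As with Adipoq, 3 of the 8 passed the filter through 1 group alone, with a mean under 10 in the other libraries, namely Plin1 and Cfd through ASCs and Aqp7 through FAPs, and the filter thus set their direction against those groups. Without them 2 genes were higher and 2 lower in ASCs against FAPs, 0 higher and 5 lower in injured FAPs against FAPs, and 1 higher and 3 lower in injured FAPs against ASCs, and the medians were −0.27, −2.29 and −1.39, the first of them with its sign reversed. Car3 was higher in ASCs than in FAPs by 3.76 and lower in injured FAPs than in FAPs by −1.95. With Adipoq included, the 16 genes summed to 1548, 1305 and 2099 in ASCs, 1165 and 1177 in FAPs, 218, 281 and 219 in injured FAPs and 12030 in CD31+CD45+ cells, with Car3 the most abundant in ASCs and Lipe in all other libraries. Without Car3 the sum was 653, 596 and 590 in ASCs, 1096 and 1102 in FAPs and 192, 256 and 211 in injured FAPs. ASCs then lay below FAPs. In CD31+CD45+ cells most of the sum was Lipe at 6607 and Aqp7 at 4661, while Adipoq was at 4.71 and Plin1 at 1.57. Among the 16 genes Lep and Retn were at 0 in injured FAP replicates 1, 2 and 3. Retn was also at 0 in both FAP libraries, and Lep in FAP replicate 2. Of the 16 genes, ASCs had 2, 1 and 0 at 0, FAPs 4 and 4, and injured FAPs 3, 4 and 7. Floating mature fat cells had been separated by centrifugation before ASCs were selected. Whether any were left, and a part of mature fat cells in the Adipoq values, was not tested. Of 6 genes for adiponectin receptors and assembly, 3 were higher and 0 lower, 1 higher and 1 lower, and 0 higher and 2 lower, with medians of 0.62, 0.11 and −0.42. Both counts of 0 from limma were also 0 at an unadjusted p under 0.05, by edgeR and by DESeq2. Ero1a, which takes part in adiponectin assembly, was higher than in FAPs by 1.23 in ASCs and 0.78 in injured FAPs, and Cdh13, which binds adiponectin, was lower in injured FAPs by −2.31 against FAPs and −2.84 against ASCs.

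**Figure D5:**
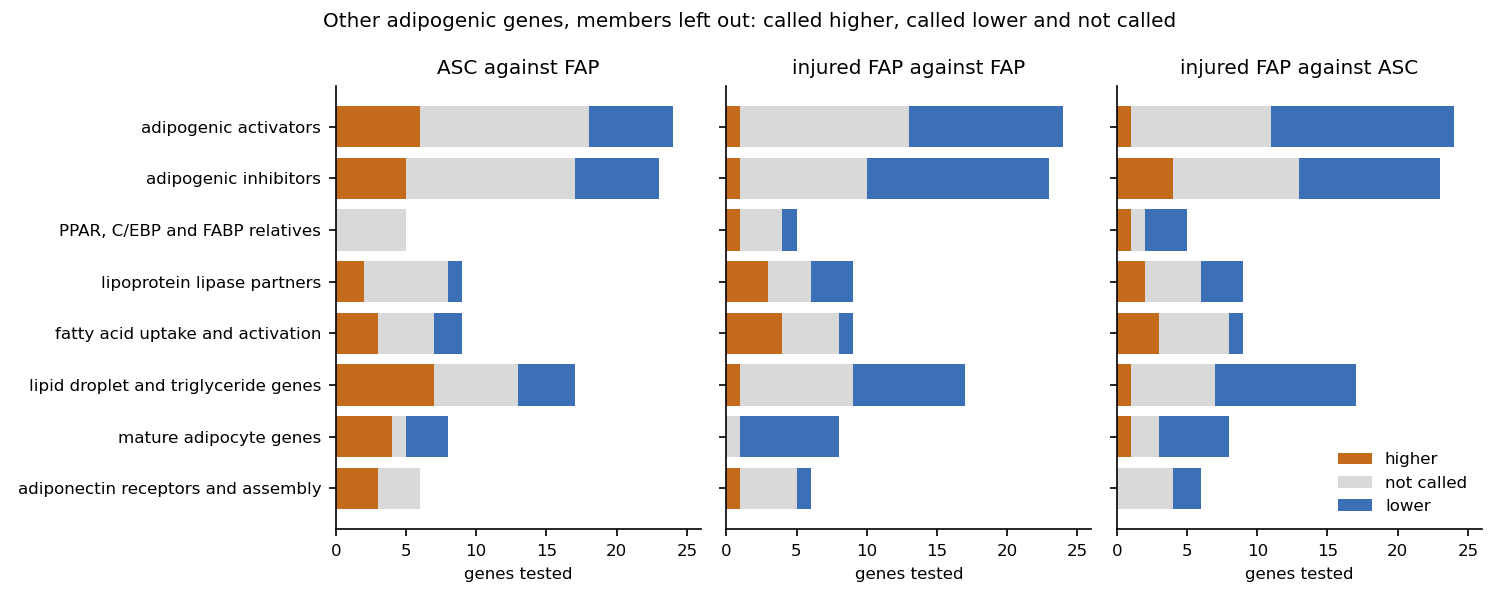
Number of genes called higher, not called and called lower in each of the 8 lists of other adipogenic genes, members left out, for the 3 comparisons. Bars start at 0 and count the genes tested. In injured FAPs against FAPs 42 of the 98 other genes are lower and 12 higher.

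Markers of further cell types moved between the groups as well. The sum of 8 smooth muscle and pericyte markers was 5387, 3456 and 4218 in ASCs, 24322 and 21377 in FAPs, 10489, 10093 and 10625 in injured FAPs and 90198 in CD31+CD45+ cells. Among ASCs, FAPs and injured FAPs, it was highest in FAPs, as Zfp423 was. The CD31+CD45+ library was above FAPs in this sum but below them for Zfp423. Abcc9 was the most abundant in ASCs, Rgs5 and Acta2 in the FAP libraries and Cspg4 in injured FAPs, and none of the 8 was at 0 in any library. For 10 skeletal muscle fibre markers the sum was 188, 142 and 183 in ASCs, 873 and 1014 in FAPs and 308, 319 and 249 in injured FAPs, with Tnnt3 or Acta1 the most abundant. For 6 satellite cell markers it was 2801, 2767 and 2660.1 in ASCs, 1129 and 1101 in FAPs and 4455, 4262 and 4096 in injured FAPs, nearly all of it Vcam1. Without Vcam1 this sum was 5.27, 5.66 and 2.51 in ASCs, 73.2 and 148 in FAPs and 52.6, 39.5 and 35.8 in injured FAPs, so that FAPs were highest, and Pax7 was at 0 in the 3 ASC libraries. For 5 Schwann cell markers, most of it Pmp22 in these groups, it was 15670.0, 12900.4 and 14392 in ASCs, 16156 and 16959 in FAPs and 7129.8, 6102 and 6397 in injured FAPs. Without Pmp22 it was 1097, 820.0 and 717 in ASCs, 899 and 1593 in FAPs and 630.0, 371 and 638 in injured FAPs, and the median log2 fold change of the 5 markers in injured FAPs against ASCs was 0.58, although 2 of them were called lower. The part of these cell types in the values of Zfp423, Plin2 or any other member was not tested.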

How the data were processed

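RNA of 9 libraries was sequenced with paired-end reads. Read filtering by the authors used fastq_illumina_filter 0.1, quality control FastQC 0.11.9, alignment to mm10 HISAT2 2.2.1, gene counting featureCounts (Subread 2.0.1) and the differential tests DESeq2 1.34.0. They deposited 1 normalized signal value per gene and library, whose scaling is not stated in the sources used here. All values (100%, tolerance 0.01 reads) were whole reads divided by 1 size factor per library, from 0.637 to 1.31. Of 26214 genes 6684 were at 0 in every library. The table has 2 empty columns. Strand and multi-mapping settings of the counting are not given in the sources used here, so reads of overlapping antisense genes cannot be told apart. 3 reads were worth 2.29 to 4.71.

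Groups came from the sample labels. On log2(value + 1) of the deposited values of the 8 ASC, FAP and injured FAP libraries, limma 3.58.1 (R 4.3.3; trend, 1 mean per group, 5 residual degrees of freedom) was fitted for 13601 genes whose mean reached 10. The method was tested on simulated data. Positions and transcript lengths came from GENCODE M21 (GRCm38), promoters from RefSeq, and primers from the supplementary data of the study. Motifs, sums and figures were made with Python 3.11.15 and matplotlib 3.10.9.

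Every member is named. Of each other list the called genes with the largest changes were eligible (up to 3 each way in a comparison, mean of 100 or more over the 8 libraries), and for Pparg the 3 genes with the highest Pearson r. The members and lists were chosen with earlier results of these data known. Marker lists covered stromal, endothelial, smooth muscle and pericyte, satellite and Schwann cells, leukocytes, skeletal muscle fibres and mature adipocytes.

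Alternatives were pseudocounts of 0.5 and 8, no filter or a mean of 50, quantile normalization, a common 75th percentile, unadjusted p, only the compared groups, a replicate block, each library left out, and edgeR 4.0.16 and DESeq2 1.42.0 on the recovered reads.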

Additional observations from a re-analysis of the deposited data

Results flagged for a closer look

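In the CD31+CD45+ library, which entered no comparison, 3 of the 10 members had a normalized value above all 8 ASC, FAP and injured FAP libraries. Pparg was at 1447 there, against a highest value of 517 in the other libraries, Fabp4 at 42779 against 792, and Cd36 at 52764 against 1080.2. Such a value was found for 30.0% of the members, 30.5% of the 118 other adipogenic genes and 28.3% of the 13601 genes tested. The library has no replicate, and these differences were not tested.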

How the results depend on the processing

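All 114 counts of called genes under the alternatives were within 1.5 times the reported ones. For the members they were 6 to 8 with a library left out and 5 to 6 otherwise in ASCs against FAPs (reported: 6), 7 to 8 and 6 to 8 in injured FAPs against FAPs (7), and 8 to 9 and 7 to 9 in injured FAPs against ASCs (8). For the other adipogenic genes they were 46 to 52 and 43 to 55 (49), 52 to 55 and 48 to 55 (54), and 53 to 59 and 51 to 64 (58). Of 567 values of members, 541 kept direction and call, 6 lost the call, 12 gained it and 8 reversed. Against FAPs, Cebpd in ASCs reversed to −0.48 with quantile normalization and −0.048 without FAP replicate 2 (0.48 without replicate 1). Fabp4 reversed to −0.26 in ASCs without FAP replicate 2 (1.88 without replicate 1) and to 0.15 in injured FAPs without FAP replicate 1 (−1.99 without replicate 2). Cd36 reversed without FAP replicate 2 to −0.59 in ASCs and −2.71 in injured FAPs (9.49 and 7.37 without replicate 1), and in injured FAPs also with edgeR (−1.61) and DESeq2 (−1.64). Of 1501 values of other named genes 1490 kept both, 10 lost the call and Lrp1 reversed in injured FAPs against ASCs to 0.24 with quantile normalization. The cause was not tested. These genes were listed for the alternatives after the data were seen. With 1 FAP library left, it is assumed to vary like the other groups.

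With the replicate number as a block, 6, 7 and 8 members and 50, 54 and 58 other genes were called in the 3 comparisons, and no member changed its call. Over 7 pairs with the same number, deviations from the group means correlated at −0.05 to 0.04, 0 of them above 0.1, and 1 of 8 libraries correlated best with its own number, so the numbers do not pair the libraries.

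Scaling to a common 75th percentile moved the median log2 fold change of all genes to −0.20, −0.15 and 0.13 in the 3 comparisons, and the share of called genes that were higher from 49.6% to 37.2%, 47.4% to 41.8% and 49.3% to 56.1%. Among the members, depth limits Adipoq.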
